A study of Mus musculus with 9 samples.

Results

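The GADD45 genes and the genes of the integrated stress response were examined in mouse ovary. The 10 genes were taken by symbol from a table of 22544 genes and assembled loci: Gadd45a, Gadd45b, Gadd45g, Nupr1, Atf3, Atf4, Ddit3, Trib3, Chac1 and Sesn2. Each symbol matched 1 entry. The set was chosen by the measured FPKM values of CTX against NC, in which Gadd45a and Nupr1 had drawn attention as low in CTX, together with genes of related function. Their CTX against NC values are therefore given as a description, with no p-value. The CTX libraries also enter HBOT against CTX, so for Gadd45a and Nupr1 higher values in HBOT than in CTX were favoured by the choice. The NC libraries likewise enter HBOT against NC, so lower values of both genes in HBOT than in NC were favoured too. The study measured polyadenylated RNA of whole ovary in 9 libraries, 3 in each of 3 groups. The HBOT group is CTX combined with hyperbaric oxygen, per the series' design text, the CTX group carries the usual abbreviation of cyclophosphamide, an alkylating drug that injures ovarian follicles, and the NC group is labelled with neither treatment. The labels state no strain, age, dose, time or number of animals behind a library. The p-values thus cover the spread among these samples only, which may be technical.

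GADD45 proteins are small stress sensors that bind the kinase MAP3K4 and cell cycle proteins such as CDK1, p21 and PCNA, and their genes are switched on by DNA damage, growth arrest and cytokines. In the integrated stress response, kinases that sense misfolded protein, amino acid shortage, viral RNA or heme shortage phosphorylate the initiation factor eIF2α, general translation slows, and the transcription factor ATF4 is translated preferentially. ATF4 then raises genes for amino acid supply and further regulators, among them Ddit3, which encodes the pro-apoptotic factor CHOP, and Trib3, Chac1, Sesn2, Nupr1 and Atf3. Because ATF4 is governed mainly at translation, the amount of its own mRNA is not a measure of the pathway's activity.

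The 250 bases before the annotated start of each gene are shown for the genes that the results turn on and for those with a match to the ATF4 element. They come from RefSeq on GRCm38.p6, in which all 10 genes matched by symbol, whereas the deposited values were made on GRCm39. Sequences run 5′ to 3′ on the strand of the gene, and capitals mark every match to a motif searched on both strands. The motifs were TGATGNAA, the core of the element bound by ATF4 with a C/EBP partner (TTGCATCA reads as its reverse complement), TGACGT, the core of the cAMP response element, ATTTGCAT, the octamer bound by POU factors, CACGTG, an E-box, and the endoplasmic reticulum stress element, which is CCAAT and CCACG with any 9 bases between them.
Nupr1 (GRCm38.p6 chr7:126625471-126625720, minus strand): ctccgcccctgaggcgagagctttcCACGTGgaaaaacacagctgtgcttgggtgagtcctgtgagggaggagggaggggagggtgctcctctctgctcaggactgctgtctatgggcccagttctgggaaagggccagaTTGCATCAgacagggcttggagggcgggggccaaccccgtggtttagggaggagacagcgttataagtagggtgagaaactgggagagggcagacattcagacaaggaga
Gadd45a (GRCm38.p6 chr6:67037408-67037657, minus strand): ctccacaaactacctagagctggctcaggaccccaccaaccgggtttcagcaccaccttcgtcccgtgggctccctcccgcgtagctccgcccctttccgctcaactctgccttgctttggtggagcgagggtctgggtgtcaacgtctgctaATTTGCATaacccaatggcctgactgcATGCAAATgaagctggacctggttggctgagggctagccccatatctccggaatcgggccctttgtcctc
Gadd45g (GRCm38.p6 chr13:51846425-51846674, plus strand): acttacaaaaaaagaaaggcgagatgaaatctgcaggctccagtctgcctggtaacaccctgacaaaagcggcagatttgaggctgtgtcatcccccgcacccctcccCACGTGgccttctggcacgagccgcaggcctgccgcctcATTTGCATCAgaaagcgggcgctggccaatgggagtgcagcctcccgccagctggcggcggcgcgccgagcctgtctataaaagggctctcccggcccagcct
Atf3 (GRCm38.p6 chr1:191183334-191183583, minus strand): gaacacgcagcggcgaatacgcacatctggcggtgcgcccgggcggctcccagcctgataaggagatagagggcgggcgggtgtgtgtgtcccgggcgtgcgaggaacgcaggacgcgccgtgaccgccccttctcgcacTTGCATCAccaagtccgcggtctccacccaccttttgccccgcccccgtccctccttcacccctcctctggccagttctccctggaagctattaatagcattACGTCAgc
Chac1 (GRCm38.p6 chr2:119350992-119351241, plus strand): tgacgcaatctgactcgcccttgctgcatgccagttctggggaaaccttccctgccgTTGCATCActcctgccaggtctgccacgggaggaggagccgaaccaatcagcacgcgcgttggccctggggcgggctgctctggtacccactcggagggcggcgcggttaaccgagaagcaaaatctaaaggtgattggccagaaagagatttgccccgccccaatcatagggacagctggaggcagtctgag

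The ATF4 element core matched in 4 of the 10 members, Gadd45g, Nupr1, Atf3 and Chac1, and in 3.45% of 32851 RefSeq promoters of the same length. The members include genes listed for their link to ATF4, so the element was favoured by the choice and nothing is read from this comparison. The match began 110 bases before the start in both Nupr1 and Atf3, 101 bases before it in Gadd45g and 193 bases before it in Chac1. The octamer matched in Gadd45a, at 97 and 70 bases before the start, and in Gadd45g at 103 bases, where it shares bases with the ATF4 element match. It was found in 1.60% of all promoters. The E-box matched in Gadd45b, Gadd45g and Nupr1 (6.02% of all promoters) and the core of the cAMP response element in Atf3, 8 bases before the start (6.47%). The endoplasmic reticulum stress element matched in 0 of the 10 members and in 0.113% of all promoters. A match describes letters in this window, and no binding was measured.

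**Figure D1:**
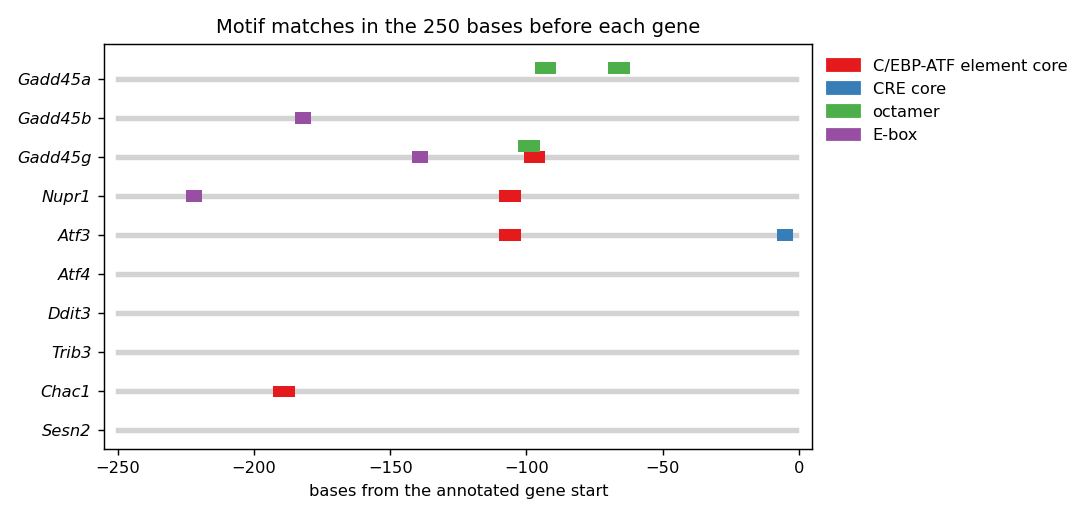
Position of motif matches in the 250 bases before the annotated start of each member, in bases from the start (horizontal axis), with genes on the vertical axis and colours for the motifs (C/EBP-ATF element core is TGATGNAA, CRE core, for cAMP response element, is TGACGT). The matches to the C/EBP-ATF element in Nupr1 and Atf3 begin at the same distance, 110 bases before the start, and Atf4, Ddit3, Trib3 and Sesn2 have no match.

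Levels are the deposited FPKM (fragments per kilobase of transcript, scaled to library size), which set genes on a scale per length. Differences are limma log2 fold changes of FPKM + 1, a scale on which changes of low genes come out too small. Read depth is unknown. Summed FPKM per library ran from 394046 to 420058, and the markers of oocytes, granulosa cells and steroid-producing theca cells were each at 1 FPKM or more in every library (6 of 6, 6 of 6 and 5 of 5 listed markers), as the tissue label implies. HBOT replicate 2 stood apart before any comparison: 1637 genes differed by over 1 log2 unit from the average of the remaining libraries, against 173 to 347 genes for each of the other 8, and its 5 ovulation markers (Ereg, Areg, Ptgs2, Pgr and Tnfaip6) summed to 785 FPKM, against 1.03 to 3.55 FPKM elsewhere. The fold changes of HBOT and the list counts in HBOT against CTX are therefore given with and without this library. CTX replicate 1 had the highest sum of the 3 adipocyte markers (Adipoq, Plin1 and Cfd), 68.9 FPKM against 0.698 to 20.1 FPKM elsewhere. Adipoq was at 5.24 FPKM there and at 0 FPKM in every other library. Cfd was at 39.8 FPKM there and at 0.0469 FPKM or less elsewhere, while Plin1 (23.9 FPKM) was near HBOT replicate 1 (20.1 FPKM). An alternative left out CTX replicate 1 together with HBOT replicate 2. Because whole ovaries were measured, fewer cells of a type and less RNA per cell cannot be told apart.

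Across the 9 libraries Nupr1 was the most abundant of the 10 transcripts on average (114 FPKM), followed by Atf4 (102 FPKM) and Gadd45a (70.5 FPKM). Ddit3 (30.2 FPKM), Gadd45g (23.5 FPKM) and Gadd45b (17.5 FPKM) were intermediate. Sesn2 (6.96 FPKM) and Atf3 (3.09 FPKM) were low, and Trib3 (1.27 FPKM) and Chac1 (0.956 FPKM) lay near 1 FPKM. The range over libraries was widest for Nupr1, with a highest value 9.48 times its lowest, and narrowest for Sesn2, at 1.73 times. Neighbours in this order whose ranges over the libraries overlap, such as Nupr1 and Atf4, were not separated by their spread. A test needed at least 1 FPKM in at least 3 libraries. This held for 9 members, and Chac1 reached it in 2 libraries only.

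**Figure D2:**
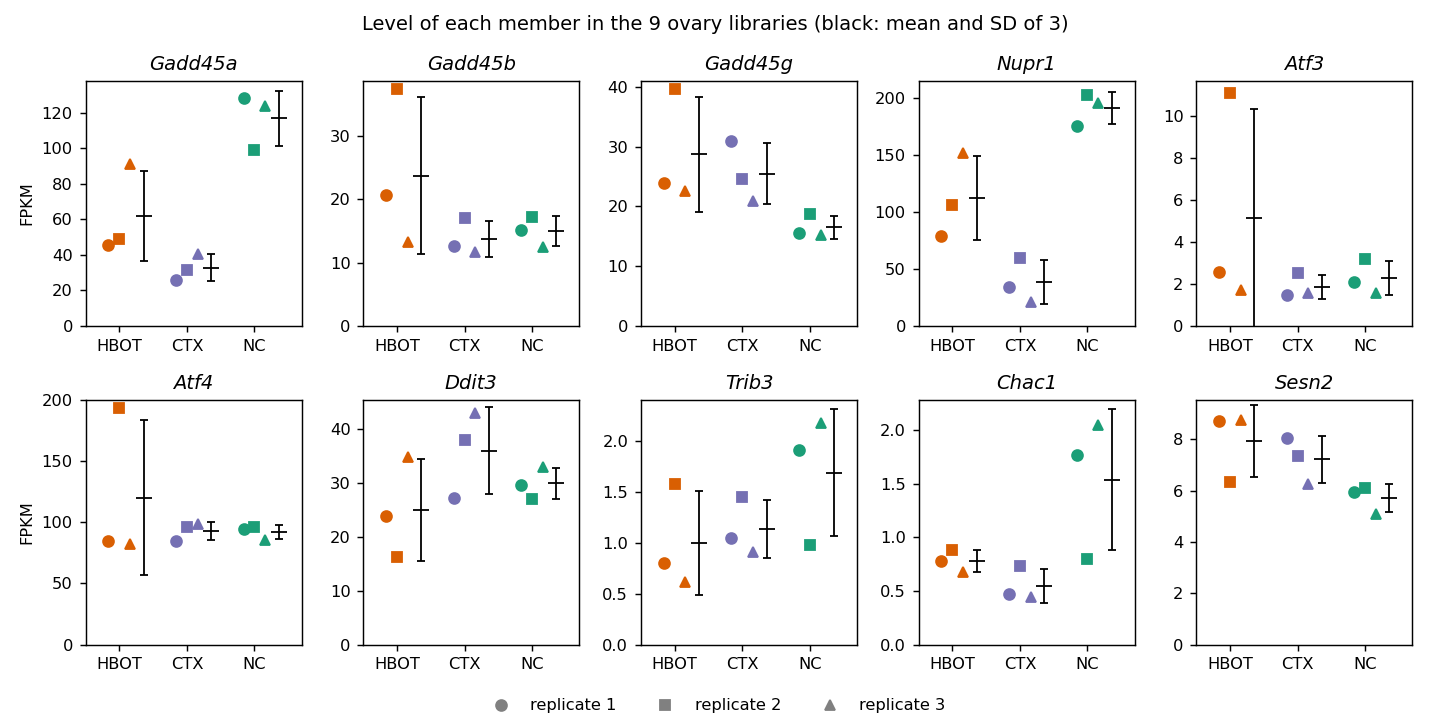
FPKM (vertical axis, linear from 0, a separate scale in each panel) of the 10 genes in the HBOT, CTX and NC libraries (horizontal axis). Symbols are libraries, shaped by replicate, and the black bar is the mean and SD of 3. Gadd45a and Nupr1 separate all 3 groups, while HBOT replicate 2 alone lies high for Atf3 (11.1 FPKM) and Atf4 (194 FPKM).

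Gadd45a and Nupr1 separated the 3 groups without overlap and in the same order, lowest in CTX, intermediate in HBOT and highest in NC. Gadd45a (ENSMUSG00000036390), the family member best known as a target of p53, had 45.6, 49.0 and 91.1 FPKM in the HBOT libraries, 26.0, 31.7 and 40.7 FPKM in the CTX libraries, and 128, 99.2 and 123 FPKM in the NC libraries. Nupr1 (ENSMUSG00000030717), a small chromatin-associated stress protein, had 79.3, 106 and 151 FPKM in the HBOT libraries, 34.3, 59.9 and 21.4 FPKM in the CTX libraries, and 176, 203 and 196 FPKM in the NC libraries. For both genes the highest HBOT library was replicate 3 and the lowest was replicate 1, and every HBOT library lay between the highest CTX and the lowest NC library. This order, with no overlap at either step, was found in 15 of the 13338 tested genes (0.112%), 2 of them members. Since the CTX and NC values helped to choose these genes, that count is a description.

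Set against NC, the CTX mean of Gadd45a was 32.8 ± 7.42 FPKM, against 117 ± 15.5 FPKM (SD, n = 3 each), a ratio of 0.281 and a log2 fold change of -1.82 (SE 0.27). That of Nupr1 was 38.5 ± 19.6 FPKM in CTX, against 191 ± 14.1 FPKM in NC, a ratio of 0.201 and a log2 fold change of -2.40 (SE 0.35). Set against CTX, Gadd45a averaged 61.9 ± 25.3 FPKM in HBOT, a log2 fold change of 0.85 (SE 0.27) that did not pass (adjusted p = 0.710 by limma with Benjamini-Hochberg adjustment over all tested genes). Nupr1 averaged 112 ± 36.4 FPKM in HBOT, 2.91 times its CTX mean (log2 fold change 1.59, SE 0.35, adjusted p = 0.710 by limma). Without HBOT replicate 2 these differences were 0.98 (SE 0.29, adjusted p = 0.751) for Gadd45a and 1.60 (SE 0.41, adjusted p = 0.634) for Nupr1, so neither rested on that library. Without HBOT replicate 3 the Gadd45a difference was 0.54. In HBOT against NC, Gadd45a was at -0.97 (SE 0.27, adjusted p = 0.296) and Nupr1 at -0.81 (SE 0.35, adjusted p = 0.414), and without HBOT replicate 2 they were at -0.84 (adjusted p = 0.317) and -0.80 (adjusted p = 0.431). HBOT against CTX shares the CTX libraries with CTX against NC, so the opposite signs of the comparisons are not independent of each other.

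**Figure D3:**
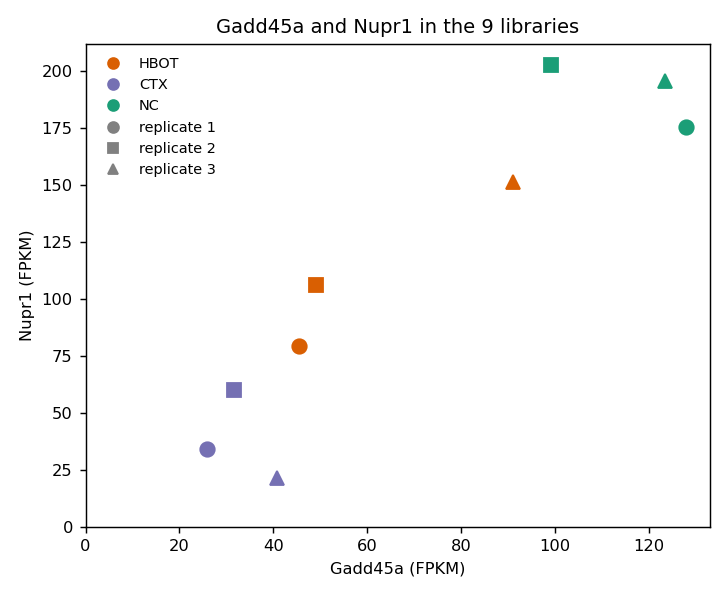
Nupr1 (vertical axis, FPKM) against Gadd45a (horizontal axis, FPKM), both linear from 0, with a point for each of the 9 libraries, coloured by group and shaped by replicate. The CTX libraries lie lowest on both axes, the HBOT libraries from 45.6 to 91.1 FPKM for Gadd45a lie between, and the NC libraries lie highest.

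Markers of the corpus luteum, the steroid-secreting body that forms after ovulation, had a related distribution over the libraries. The 3 listed markers (Akr1c18, Ptgfr and Lhcgr, all at 1 FPKM or more in every library) summed to 316, 476 and 3019 FPKM in HBOT replicates 1, 2 and 3, to between 271 and 398 FPKM in CTX and to between 2265 and 2736 FPKM in NC. By this sum HBOT replicate 3, the HBOT library with the highest Gadd45a and Nupr1, was above the NC libraries, while HBOT replicates 1 and 2 were near CTX. Most of the sum was Akr1c18, an enzyme that inactivates progesterone, at 2848 FPKM in HBOT replicate 3. Lhcgr, the receptor for luteinizing hormone, did not follow it, with 73.5, 37.3 and 61.3 FPKM in HBOT, 64.9, 112 and 178 FPKM in CTX and 107, 125 and 25.4 FPKM in NC. The part of luteal cells in the Gadd45a and Nupr1 values was not tested.

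The genes whose library profiles lay closest to Gadd45a and Nupr1 were found by the root mean square difference of log2(FPKM + 1), each profile centred on its own mean over the 9 libraries. For Gadd45a, which itself varied by 0.80 log2 units about its mean on this measure, they were the magnesium channel gene Trpm6 (0.19), the lysosomal protease gene Lgmn (0.27), the sterol carrier gene Scp2 (0.34), the calcium-binding protein gene S100a6 (0.34) and Rgl1, an effector of Ras-related GTPases (0.35). For Nupr1, with 1.08 log2 units about its mean, they were the matrix glycoprotein gene Tnc (0.43), the glycosyltransferase gene B3gnt2 (0.50), Rgl1 (0.53), the sugar-phosphate exchanger gene Slc37a2 (0.53) and the cell cycle inhibitor gene Cdkn2b (0.54). Rgl1 appeared for both. None of these 9 genes is among the 10 members, and the distance between Gadd45a and Nupr1 themselves was 0.56.

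Gadd45g and Sesn2 were lowest in NC, where Gadd45a was highest, but their HBOT libraries overlapped CTX and did not lie between the other groups. Gadd45g (ENSMUSG00000021453), a family member linked to gonad development in mouse, had 23.8, 39.7 and 22.5 FPKM in HBOT, 30.9, 24.6 and 20.8 FPKM in CTX and 15.6, 18.7 and 15.2 FPKM in NC. Every HBOT and CTX library was above every NC library, and HBOT and CTX overlapped. Sesn2 (ENSMUSG00000028893), which encodes a leucine sensor that restrains mTORC1, had 8.73, 6.33 and 8.77 FPKM in HBOT, 8.05, 7.35 and 6.26 FPKM in CTX and 5.94, 6.11 and 5.08 FPKM in NC. Its lowest CTX library exceeded its highest NC library by a small margin, 6.26 against 6.11 FPKM. Such an arrangement, with both groups wholly above NC, was found in 4.59% of tested genes.

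Summed markers of several other cell types had that arrangement too, with both HBOT and CTX wholly above NC and overlapping each other. The 6 oocyte markers summed to 245 to 282 FPKM in HBOT, 165 to 256 FPKM in CTX and 107 to 150 FPKM in NC. The 6 red blood cell markers summed to 317 to 735 FPKM in HBOT, 387 to 816 FPKM in CTX and 62.8 to 207 FPKM in NC. Immune cell markers were likewise lowest in NC. Those of neutrophils summed to 11.7 to 33.6 FPKM in HBOT, 6.25 to 31.3 FPKM in CTX and 0.792 to 1.84 FPKM in NC, those of macrophages to 86.4 to 152 FPKM in HBOT, 99.3 to 129 FPKM in CTX and 71.0 to 75.3 FPKM in NC, and those of T and NK cells to 2.90 to 7.96 FPKM in HBOT, 4.01 to 9.35 FPKM in CTX and 1.19 to 1.91 FPKM in NC. The part of these cells in the values of Gadd45a, Nupr1, Gadd45g and Sesn2 was not tested.

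Gadd45g averaged 25.4 ± 5.08 FPKM in CTX and 16.5 ± 1.92 FPKM in NC (log2 fold change 0.58, SE 0.23), and 28.7 ± 9.56 FPKM in HBOT, which gave 0.72 against NC (SE 0.23, adjusted p = 0.329 by limma). Without HBOT replicate 2 the HBOT against NC value was 0.47 (SE 0.16, adjusted p = 0.316). Against CTX the HBOT value was 0.14 (SE 0.23, adjusted p = 0.830), and -0.11 without HBOT replicate 2. Sesn2 averaged 7.22 ± 0.905 FPKM in CTX and 5.71 ± 0.552 FPKM in NC (log2 fold change 0.29, SE 0.16), and its HBOT mean of 7.94 ± 1.40 FPKM gave 0.40 against NC (SE 0.16, adjusted p = 0.386 by limma) and 0.11 against CTX (SE 0.16, adjusted p = 0.800). Without HBOT replicate 2, the lowest HBOT library for Sesn2, the differences were 0.54 against NC (SE 0.13, adjusted p = 0.234) and 0.25 against CTX (SE 0.13, adjusted p = 0.933).

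The profiles closest to Gadd45g, which varied by 0.40 log2 units about its mean, were those of the co-chaperone gene Fkbp4 (0.12), the potassium channel gene Kcnk5 (0.12), the microtubule-associated protein gene Spef1 (0.14) and the ribosome assembly genes Ppan (0.14) and Nop56 (0.14). Fkbp4 was at 166 ± 58.1 FPKM in HBOT, 142 ± 19.0 FPKM in CTX and 97.9 ± 13.4 FPKM in NC. Nop56 was at 114 ± 42.9 FPKM in HBOT, 107 ± 21.3 FPKM in CTX and 78.3 ± 1.65 FPKM in NC.

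Gadd45b (ENSMUSG00000015312), the family member induced by TGF-beta and NF-kappaB signalling, had 20.6, 37.3 and 13.2 FPKM in HBOT, 12.6, 17.0 and 11.7 FPKM in CTX and 15.2, 17.3 and 12.5 FPKM in NC. The groups overlapped in every comparison, and HBOT replicate 2 held the highest value, 1.81 times the highest of the other 8 libraries. HBOT against CTX was at 0.64 (SE 0.32, adjusted p = 0.710 by limma) and at 0.26 (SE 0.22) without HBOT replicate 2. CTX against NC was at -0.12 (SE 0.32).

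The share of each gene in the family's RNA was then compared. The 3 GADD45 genes summed to 90.0, 126 and 127 FPKM in HBOT, 69.4, 73.3 and 73.2 FPKM in CTX and 159, 135 and 151 FPKM in NC. Gadd45a made up 50.6%, 38.9% and 71.8% of the sum in HBOT, 37.4%, 43.2% and 55.6% in CTX and 80.6%, 73.4% and 81.7% in NC. Gadd45g made up 26.5%, 31.5% and 17.8% in HBOT, 44.5%, 33.6% and 28.4% in CTX and 9.83%, 13.8% and 10.1% in NC. In CTX replicate 1 Gadd45g was the largest of the 3, and in each of the other 8 libraries Gadd45a was. Every NC library had a larger Gadd45a share than every HBOT and CTX library, while the HBOT and CTX shares overlapped.

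**Figure D4:**
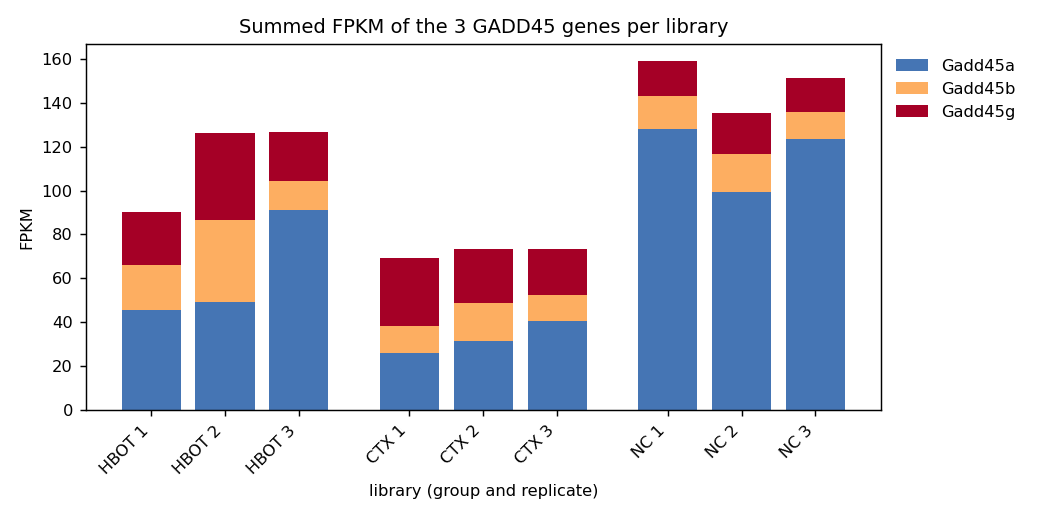
Stacked bars of the FPKM of Gadd45a, Gadd45b and Gadd45g (vertical axis, linear from 0) in each library (horizontal axis, group and replicate). The CTX bars total 69.4 to 73.3 FPKM, the HBOT bars 90.0 to 127 FPKM and the NC bars 135 to 159 FPKM.

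Atf4 did not show the order of Gadd45a and Nupr1. Atf4 (ENSMUSG00000042406), the central transcription factor of the response, had 85.1, 194 and 81.9 FPKM in HBOT, 84.8, 96.4 and 98.4 FPKM in CTX and 94.7, 96.0 and 85.3 FPKM in NC. Apart from HBOT replicate 2, the other 8 libraries lay between 81.9 and 98.4 FPKM. CTX averaged 93.2 ± 7.33 FPKM and NC 92.0 ± 5.87 FPKM, a log2 fold change of 0.02 (SE 0.29) whose sign turned with the scaling, to -0.02 with values rescaled to TPM and -0.04 with median-of-ratios factors. HBOT against CTX was at 0.25 (SE 0.29, adjusted p = 0.775 by limma) and turned to -0.15 (SE 0.10, adjusted p = 0.940) without HBOT replicate 2. HBOT against NC was at 0.27 (SE 0.29, adjusted p = 0.700) and turned to -0.14 without it.

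Atf3 (ENSMUSG00000026628), a repressor induced by many stresses, had 2.55, 11.1 and 1.72 FPKM in HBOT, 1.48, 2.53 and 1.59 FPKM in CTX and 2.11, 3.18 and 1.55 FPKM in NC. HBOT replicate 2 stood at 3.49 times the highest of the other 8 libraries, which overlapped between groups. HBOT against CTX was at 0.79 (SE 0.50, adjusted p = 0.710 by limma), and at 0.13 (SE 0.25) without that library. HBOT against NC was at 0.60 (SE 0.50, adjusted p = 0.613) and at -0.05 without it. The profiles closest to Atf3 belonged to the transcription factor gene Stat3 (0.14), the kinase gene Pim1 (0.16), the antiproliferative gene Btg1 (0.17), the vinculin gene Vcl (0.18) and Sipa1l2 (0.19), with Atf3 itself at 0.67 about its mean. In HBOT replicate 2 Stat3 reached 121 FPKM, against 25.6 to 37.5 FPKM in the other 8 libraries.

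Ddit3 (ENSMUSG00000025408) had 23.8, 16.1 and 34.8 FPKM in HBOT, 27.1, 37.8 and 42.8 FPKM in CTX and 29.6, 27.0 and 32.8 FPKM in NC. HBOT replicate 2 held its lowest value, although the same library held the highest values of Atf3 and Atf4. HBOT against CTX was at -0.55 (SE 0.26, adjusted p = 0.710 by limma) and at -0.29 (SE 0.22, adjusted p = 0.940) without HBOT replicate 2. CTX against NC was at 0.24 (SE 0.26), and the groups overlapped in all 3 comparisons.

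Trib3 (ENSMUSG00000032715), a pseudokinase that restrains ATF4 and AKT, had 0.798, 1.58 and 0.613 FPKM in HBOT, 1.05, 1.45 and 0.905 FPKM in CTX and 1.91, 0.981 and 2.17 FPKM in NC. Chac1 (ENSMUSG00000027313), which encodes an enzyme that degrades glutathione, had 0.783, 0.882 and 0.681 FPKM in HBOT, 0.472, 0.733 and 0.447 FPKM in CTX and 1.77, 0.793 and 2.05 FPKM in NC. For both genes NC replicates 1 and 3 were the highest libraries and NC replicate 2 lay with the treated ones. Their profiles were the closest pair among the 10 genes, with a root mean square difference of 0.21, although near 1 FPKM profiles have little room to differ on this scale. Trib3 was at -0.31 in CTX against NC (SE 0.24), at -0.12 in HBOT against CTX (SE 0.24, adjusted p = 0.868 by limma) and at -0.43 in HBOT against NC (SE 0.24, adjusted p = 0.498). Without HBOT replicate 2, the highest HBOT library for Trib3, it was at -0.32 against CTX (SE 0.23, adjusted p = 0.940) and at -0.63 against NC (SE 0.23, adjusted p = 0.328). For Chac1, which was not tested, the CTX mean was 0.550 ± 0.158 FPKM and the NC mean 1.54 ± 0.659 FPKM.

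Counted over the 9 tested members, 0 passed an adjusted p of 0.05 by limma in HBOT against CTX and 0 in HBOT against NC, and over all 13338 genes the share was 0% in each. In HBOT against CTX, 2 of the 9 members had an unadjusted p under 0.05, against 6.09% of all genes, and 2, Gadd45a and Nupr1, had every HBOT library above every CTX library, against 3.76% of all genes. As these genes were chosen for low values in the same CTX libraries, nothing is read from the counts. No member had every HBOT library below every CTX library (0 of 9, against 6.44% of all genes). In HBOT against NC, 4 members had an unadjusted p under 0.05 (11.9% of all genes), 2 lay wholly above NC (10.9%) and 2 wholly below (9.6%). Gadd45a and Nupr1 were the 2 wholly below and were among the 4. Their NC values helped to choose them, so nothing is read from these counts. In CTX against NC, which helped to choose the genes, 2 lay wholly above (13.2%) and 2 wholly below (7.8%), and nothing is read from these counts either. Over all genes in that comparison 0% passed an adjusted p of 0.05 and 7.98% had an unadjusted p under 0.05. With all libraries, a log2 fold change above 0 was found for 7 of 9 members in HBOT against CTX (38.4% of all genes). It was found for 5 of 9 in HBOT against NC (47.6%) and for 4 of 9 in CTX against NC (59.5%). Without HBOT replicate 2 it was found for 5 of 9 members against CTX and 3 of 9 against NC. The share of all genes without that library was not computed. The all-gene median moved to -0.003 against CTX and to 0.04 against NC, so the shares above do not serve for these counts. A difference of at least 1 log2 unit was found for 1 member, Nupr1, in HBOT against CTX (1.96% of all genes), for 0 in HBOT against NC (2.46%) and for 2 in CTX against NC (1.54%). The median log2 fold change of the 9 members was 0.25 in HBOT against CTX, where that of all genes was -0.07, and 0.13 without HBOT replicate 2, where that of all genes was -0.003.

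**Figure D5:**
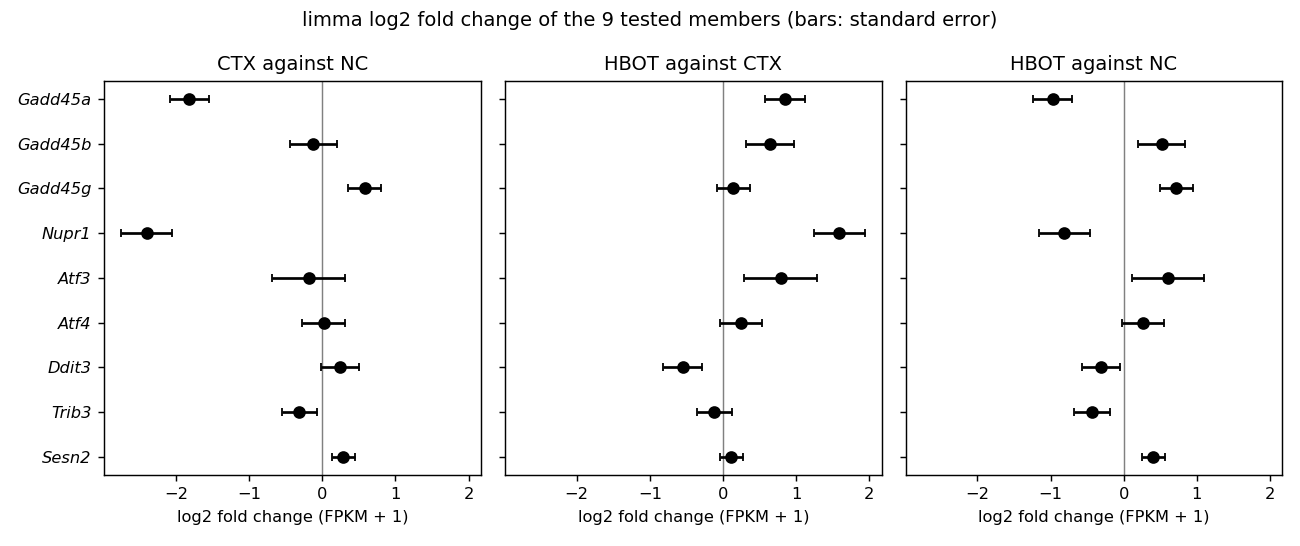
limma log2 fold change of FPKM + 1 (horizontal axis) for the 9 tested members (vertical axis) in the HBOT against CTX, HBOT against NC and CTX against NC comparisons. Points are estimates and bars are standard errors. Gadd45a and Nupr1 lie at 0.85 and 1.59 in HBOT against CTX and at -1.82 and -2.40 in CTX against NC, comparisons that share the CTX libraries.

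The list counts from here on are to be read beside the shares of all tested genes with a value above 0. With all libraries these were 38.4% in HBOT against CTX (median -0.07) and 59.5% in CTX against NC (median 0.05). Without HBOT replicate 2 the all-gene median in HBOT against CTX was -0.003. The first list held 14 genes. Among them were those for the eIF2α kinases, eIF2α itself, the subunits of eIF2B and the kinase regulators Gcn1 and Impact. The others were Ppp1r15a and Ppp1r15b, for subunits of the phosphatase that reverses the response. Of the 14 genes, 0 passed by limma in any comparison. In HBOT against CTX 5 lay above 0 and 9 below (median -0.03, all genes -0.07), and 6 lay above without HBOT replicate 2 (median -0.02). In CTX against NC 9 lay above and 5 below (median 0.04, all genes 0.05). The eIF2B subunit gene Eif2b4 was at 20.6 ± 2.19 FPKM in HBOT, 23.6 ± 0.759 FPKM in CTX and 19.4 ± 2.10 FPKM in NC. The eIF2α gene Eif2s1 itself was at 31.5 ± 5.83 FPKM in HBOT, 27.1 ± 1.89 FPKM in CTX and 29.0 ± 1.68 FPKM in NC.

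Of 35 genes known as ATF4 targets in amino acid supply and stress that were in the table, 32 were tested and 0 passed by limma in any comparison. In HBOT against CTX 21 lay above 0 and 11 below (median 0.08), while without HBOT replicate 2 the split was 15 above and 17 below (median -0.01). In CTX against NC 18 lay above and 14 below (median 0.04). The amino acid transporter subunit gene Slc3a2 had 182, 369 and 193 FPKM in HBOT, 161, 136 and 146 FPKM in CTX and 176, 170 and 206 FPKM in NC (HBOT against CTX 0.67, SE 0.24, adjusted p = 0.710 by limma, and 0.34 without HBOT replicate 2). The cystathionine gamma-lyase gene Cth, which makes cysteine, was lower in every HBOT library (2.16, 2.19 and 2.84 FPKM) than in any CTX library (3.04, 4.18 and 4.45 FPKM), with 4.76, 5.26 and 4.2 FPKM in NC. Its HBOT against CTX value was -0.52 (adjusted p = 0.710 by limma) and -0.48 without HBOT replicate 2. Jdp2, a repressor that pairs with AP-1 and ATF factors, was at 7.39 ± 0.615 FPKM in HBOT, 6.23 ± 0.938 FPKM in CTX and 4.44 ± 0.875 FPKM in NC.

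The next list held 21 genes of the ATF6 and XBP1 branch of the unfolded protein response. They were mainly for chaperones and degradation factors of the endoplasmic reticulum, together with the regulator genes Atf6, Xbp1 and Ern1. Of the 21 genes, 16 lay above 0 in HBOT against CTX (median 0.11, all genes -0.07) and 14 without HBOT replicate 2 (median 0.05). In CTX against NC 15 lay above 0 (median 0.10), and 0 passed by limma in either comparison. The co-chaperone gene Dnajb9 was at 21.3 ± 11.3 FPKM in HBOT, 12.8 ± 1.25 FPKM in CTX and 13.4 ± 1.95 FPKM in NC, with 34.3 FPKM in HBOT replicate 2. Of 9 genes listed for mitochondrial stress, 4 lay above 0 in HBOT against CTX (median -0.11), 1 without HBOT replicate 2 (median -0.09), and 3 in CTX against NC (median -0.11). The list also held Lonp2, whose protease is peroxisomal, at -0.12 in HBOT against CTX and -0.16 in CTX against NC. Without HBOT replicate 2 its HBOT against CTX value was -0.003. The protease gene Clpp was at 39.8 ± 7.99 FPKM in HBOT, 48.7 ± 2.36 FPKM in CTX and 39.0 ± 0.880 FPKM in NC.

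Among 18 genes for proteins that bind GADD45 or act in the p38 and JNK pathways below it, 10 lay above 0 in HBOT against CTX (median 0.01), 6 without HBOT replicate 2 (median -0.05), and 10 in CTX against NC (median 0.06). Cdkn1a, which encodes p21, a cyclin-dependent kinase inhibitor that GADD45 proteins bind, had 22.3, 35.9 and 13.0 FPKM in HBOT, 8.48, 10.7 and 7.12 FPKM in CTX and 15.1, 19.5 and 21.4 FPKM in NC. Like Gadd45a, its CTX libraries lay below all others, but its HBOT libraries overlapped NC and its highest value was in HBOT replicate 2 (HBOT against CTX 1.25, adjusted p = 0.710 by limma, and 0.91 without that library). Of 21 tested p53 targets, 10 lay above 0 in HBOT against CTX (median -0.03), 12 without HBOT replicate 2 (median 0.03), and 11 in CTX against NC (median 0.01). Of 13 genes for factors known to induce GADD45 genes, 12 lay above 0 in HBOT against CTX (median 0.26, and 10 without HBOT replicate 2, median 0.06) and 7 in CTX against NC (median 0.005). Trp53, which encodes p53, was at 70.7 ± 2.88 FPKM in HBOT, 70.1 ± 11 FPKM in CTX and 63.3 ± 3.42 FPKM in NC. In these 3 lists 0 genes passed by limma.

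The immediate early genes, to which Atf3 and Gadd45b are functionally close, lay lower in CTX than in NC for 12 of 15 tested (median -0.74, all genes 0.05) and higher in HBOT than in CTX for 14 of 15 (median 0.92, all genes -0.07). Without HBOT replicate 2 the HBOT against CTX count was 13 of 15 with a median of 0.30. Both comparisons use the same CTX libraries, so their opposite signs are not independent. In HBOT against NC 10 of 15 lay above 0 (47.6% of all genes), with a median of 0.23 (all genes -0.01). Without HBOT replicate 2 the split was 3 above and 12 below (median -0.28, all genes 0.04). In all 3 comparisons 0 passed by limma. Jun, an AP-1 subunit, had 22.2, 33.7 and 40.1 FPKM in HBOT, 19.2, 14.8 and 14.4 FPKM in CTX and 38.9, 30.6 and 40.5 FPKM in NC (HBOT against CTX 0.92, adjusted p = 0.710 by limma, and 0.86 without HBOT replicate 2). The Jun libraries of HBOT lay above those of CTX and overlapped those of NC. Of 13 lysosome and autophagy genes 4 lay above 0 in HBOT against CTX (median -0.06), 7 without HBOT replicate 2 (median 0.07), and 6 in CTX against NC (median -0.01), with Lamp2, a lysosomal membrane protein gene, at 113 ± 9.22 FPKM in HBOT, 100 ± 4.01 FPKM in CTX and 132 ± 7.36 FPKM in NC. Of 14 genes of the sestrin family and of mTORC1 control 4 lay above 0 in HBOT against CTX (median -0.13), 8 without HBOT replicate 2 (median 0.02), and 9 in CTX against NC (median 0.04).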

How the data were processed

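RNA of mouse ovary was profiled in 9 libraries, 3 each labelled HBOT, CTX and NC. The authors deposited 1 table of FPKM values. The tools listed in the submitters' processing notes include fastp 0.23.4, and the build is GRCm39. For the aligner, counting program and annotation the sources used here name nothing. Every column matched a sample by name. Read counts are not in the table, so depth is unknown and no count model was used.

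Values were taken as log2(FPKM + 1). The 13338 genes that reached 1 FPKM in 3 or more libraries entered a linear model of the 3 groups in limma 3.58.1 (R 4.3.3; eBayes with trend, 6 residual degrees of freedom), with Benjamini-Hochberg adjustment over all of them and a threshold of 0.05. The procedure was tested on simulated data. The members, 10 gene lists and tests were chosen with earlier results of these data known. The text names the members, up to 3 genes of a list with the smallest p in HBOT against CTX or in CTX against NC, with only some of them given, and the 5 nearest profiles among genes with a mean of at least 2 FPKM. In 21 alternatives the pseudocount, filter, scaling, samples, moderation, library weights or replicate block differed. Figures were drawn with matplotlib 3.10.9.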

Additional observations from a re-analysis of the deposited data

How the results depend on the processing

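Over 21 alternatives Gadd45a and Nupr1 kept their sign in every comparison, with Gadd45a from 0.54 to 1.03 and Nupr1 from 1.24 to 1.96 in HBOT against CTX. CTX against NC chose Gadd45a and Nupr1, so its calls of members are no test of them. There 0 members passed by limma with all libraries, against 1 (Gadd45a) in a fit of these 2 groups only, 2 (Gadd45a and Nupr1) with library weights and 0 to 1 when a library was left out (Gadd45a without HBOT replicate 3). The genes passing in that comparison numbered 0 with all libraries, 31 with the 2 groups only, 123 with library weights, 16 without both HBOT 2 and CTX 1, and 0 to 9 when a library was left out (8 without HBOT replicate 2, 9 without HBOT replicate 3, 1 without NC replicate 1). In HBOT against CTX 0 members passed in any alternative, and the genes passing were 1 with no filter, 5 with library weights, 2 without both HBOT 2 and CTX 1, and 0 to 1 when a library was left out (without CTX replicate 1, CTX replicate 2 or NC replicate 3). In HBOT against NC 0 members passed, and the genes passing were 1 with no filter, 181 with library weights and 0 to 3 when a library was left out (3 without HBOT replicate 3, 1 without NC replicate 1 or NC replicate 3). The counts of genes with an unadjusted p under 0.05 were 812 in HBOT against CTX, 1584 in HBOT against NC and 1065 in CTX against NC.

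In CTX against NC, the value of Atf4 (0.018) turned with TPM (-0.020), median-of-ratios factors (-0.040) and without CTX replicate 2 (-0.0076), CTX replicate 3 (-0.022) or NC replicate 3 (-0.035), and that of Atf3 (-0.18) without NC replicate 2 (0.0064). Signs turned, in HBOT against CTX, for Gadd45g with library weights (-0.030) and without HBOT replicate 2 (-0.11), for Atf4 with library weights (-0.14), without HBOT replicate 2 (-0.15) and without both HBOT 2 and CTX 1 (-0.22), and for Trib3 without HBOT replicate 3 (0.021). In HBOT against NC they turned for Atf3 without HBOT replicate 2 (-0.049) and without both HBOT 2 and CTX 1 (-0.049), and for Atf4 with library weights (-0.12), without HBOT replicate 2 (-0.14) and without both HBOT 2 and CTX 1 (-0.14). With a library left out these values ran, in HBOT against CTX, from -0.11 to 0.28 for Gadd45g, -0.15 to 0.46 for Atf4 and -0.32 to 0.021 for Trib3, and, in HBOT against NC, from -0.049 to 1.03 for Atf3 and -0.14 to 0.48 for Atf4. The cause was not tested. The replicate block left 0 genes called in each comparison. Deviations of same-numbered libraries correlated at -0.29 to 0.16, so the numbers were not taken as pairs. List counts, and values of genes named from the lists, without HBOT replicate 2 were chosen after seeing the data. Without read counts, precision is known only from the spread of 3 libraries.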

Other observations

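The 15 genes in which every CTX library lay below every HBOT library, and every HBOT library below every NC library, were Gadd45a, Nupr1, Rgl1, Plekha3, Xrn2, Fam110b, Ror1, Stim2, Ddx6, Rhoa, App, Sh3bgr, Sgms1, Msn and Arhgap6. They are named after their values were seen. Xrn2 and Ddx6 encode an RNA exonuclease and a helicase of RNA turnover, Rhoa a small GTPase of the actin cytoskeleton, Msn the membrane-actin linker moesin, Stim2 a calcium sensor of the endoplasmic reticulum, and Sgms1 a sphingomyelin synthase.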
